A study of Homo sapiens with 12 samples.

Results

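Genes for 10 immune surface molecules of the tumour cell were followed after FAT1 knockdown (KD) in oral squamous cell carcinoma (OSCC) cells: CD83, CD274, PDCD1LG2, CD276, CD40, CD58, CD47, ICAM1, NECTIN2 and PVR. They were taken by symbol from the 19225 entries of the count table. All 10 were found there, and all 10 were among the 13887 genes with enough counts to be tested. CD83 was chosen on its measured values in these libraries, because it was lower than in the controls in all 4 knockdown groups, so its values against the controls are given as a description without a test. The other 9 were chosen by their role, as ligands and adhesion molecules to compare it with, but with earlier results of these data known.

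HN6 and HN30 are established human OSCC cell lines. Each line was transfected with Lipofectamine RNAiMAX and either a scrambled siRNA (NC) or 1 of 2 siRNAs against FAT1, siFAT1-1 and siFAT1-2, which the sample labels also call FAT1-sh1 and FAT1-sh2. Poly(A) RNA was taken 24 h after transfection, in 2 repeats made at separate times. This gave 12 libraries in 6 conditions, 4 of them NC and 8 KD. All groups received a transfected siRNA, and no untransfected cells entered the comparison. The knockdown was transient, each FAT1 siRNA was used on its own, and each condition rested on 2 libraries. P-values from the fit with 1 mean per condition measure the spread between such repeats. Those of FAT1 KD against NC over both lines also take in differences between the siRNAs and in the KD effect between the lines.

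T cells respond to a tumour cell through more than the antigen receptor. Ligands of the B7 family on the tumour cell, among them PD-L1 (CD274) and PD-L2 (PDCD1LG2), bind receptors that restrain or help the T cell, while ICAM1 and CD58 hold the contact between the cells by binding LFA-1 and CD2. CD83, an immunoglobulin-type surface molecule best known from mature dendritic cells, is a classic target of NF-kappa B. CD274 is one of interferon gamma.

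Libraries held 26430049 to 47639010 counts (median 32561793), with 14719 to 15350 genes detected in each. FAT1 itself was lower in all 8 KD libraries than in both NC libraries of its line. HN6 had 56.8 and 66.7 CPM (counts per 1000000, scaled with TMM factors) of FAT1 in the NC libraries, 7.61 and 13.5 after siFAT1-1, and 13.2 and 21.4 after siFAT1-2. HN30 had 13.6 and 14.7 in the NC libraries, 4.86 and 6.26 after siFAT1-1, and 10.8 and 7.74 after siFAT1-2. The smallest fall was thus that of siFAT1-2 in HN30, by 0.61 on the log2 scale. Its log2 fold change had a 95% interval of -1.40 to 0.17 and did not pass (unadjusted P = 0.113, quasi-likelihood test of edgeR). All 10 squamous epithelial markers passed the filter, although KRT14, a basal keratin, had 0 to 94 counts per library. Of 14 leukocyte markers, PTPRC, the common leukocyte antigen CD45, had 0 to 1 counts, and CD1A, MS4A1 and CD2 had 0 in every library. CD68, LAMP3, CSF1R and CD14 had counts in all 12 libraries, and the summed level of the 14 was 135 to 185 CPM in HN6 NC, 139 to 213 in HN6 KD, 50.6 to 60.2 in HN30 NC and 47.1 to 80.3 in HN30 KD. Of 5 fibroblast and endothelial markers, PECAM1, an endothelial molecule, had 0 to 9 counts per library, while COL1A1, a collagen, had 393 to 5276 and PDGFRB, a receptor of mesenchymal cells, 34 to 332. The summed level of those 5 was 69.3 to 72.7 CPM in HN6 NC, 62.3 to 150 in HN6 KD, 12.9 to 22.3 in HN30 NC and 31.6 to 51.5 in HN30 KD, and the part of either list in the results was not tested.

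The sequences before the start sites of CD83 and CD274 are shown because the former is a classic NF-kappa B target and the latter an interferon gamma target. RefSeq windows on GRCh38.p14 were found for 8 of the 10 members. CD83 lies on the plus strand at chr6:14117256-14136918 in GENCODE and has a pair of annotated RefSeq starts. The 250 bases before the downstream start, at chr6:14117522-14117771, are 83.2% G or C, against 34.8% before the upstream start. The downstream window holds 6 matches to the NF-kappa B consensus (either strand, in capitals), which overlap so that they fall at 3 places, the first beginning at -134 and the last ones at -51 and -50 from the start. The upstream window holds 0. CD274, on the plus strand at chr9:5450503-5470566, has 2 overlapping matches to GAAANNGAA, the core of an interferon-stimulated element, beginning at -207 and -201, and 1 match to TTCNNNGAA, the pattern of interferon gamma-activated sites, at -125 (either strand, in capitals, window chr9:5450292-5450541).
CD83: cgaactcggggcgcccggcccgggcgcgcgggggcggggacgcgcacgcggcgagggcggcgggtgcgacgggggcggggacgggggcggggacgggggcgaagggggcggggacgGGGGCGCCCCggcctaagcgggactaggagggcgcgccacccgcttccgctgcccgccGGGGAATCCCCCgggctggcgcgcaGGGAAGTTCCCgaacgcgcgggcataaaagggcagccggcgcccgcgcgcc
CD274: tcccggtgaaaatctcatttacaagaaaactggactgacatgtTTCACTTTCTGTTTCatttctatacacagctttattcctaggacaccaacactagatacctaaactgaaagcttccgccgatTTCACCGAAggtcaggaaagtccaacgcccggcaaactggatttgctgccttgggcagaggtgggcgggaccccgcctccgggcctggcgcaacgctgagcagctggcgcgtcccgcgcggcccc
The NF-kappa B consensus was found in 9.96% of 35116 RefSeq windows of this length, GAAANNGAA in 6.88% and TTCNNNGAA in 6.57%. Among the members, CD276 also held the NF-kappa B consensus and ICAM1 also held TTCNNNGAA, so these letters were not peculiar to CD83 and CD274. Such a match describes the sequence only and does not show that a factor binds there.

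To place CD83 among its peers, the NC levels were first compared per length, as counts per kilobase of the canonical transcript scaled so that 19059 entries with a known length sum to 1000000. On this scale the 10 members ran from 6.20 to 259 in HN6 NC and from 12.1 to 205 in HN30 NC. NECTIN2 (259 ± 2.10, SD, n = 2), ICAM1 (243 ± 136) and CD276 (200 ± 17.5) led in HN6. The repeats of ICAM1 were 339 and 146, so its place among these 3 was not set. PVR (82.7 ± 1.54), CD47 (62.7 ± 15.3), CD58 (30.1 ± 20.3) and CD83 (26.98 ± 0.245) followed, and the ranges of CD58 and CD83 overlapped. PDCD1LG2 (14.6 ± 9.27), CD274 (12.5 ± 0.741) and CD40 (6.20 ± 1.31) were lowest. In HN30 the order began with ICAM1 (205 ± 47.5), CD276 (132 ± 28.1) and NECTIN2 (99.98 ± 14.4), whose ranges did not overlap. CD47 (68.2 ± 12.2) and PVR (65.9 ± 4.37) overlapped each other, and so did each neighbouring pair from CD274 (24.5 ± 8.74) through CD83 (20.4 ± 6.13), PDCD1LG2 (15.4 ± 10.8) and CD58 (15.2 ± 1.41) to CD40 (12.1 ± 5.21). By its mean CD83 held rank 7 of 10 in both lines, below NECTIN2, ICAM1, CD276, PVR and CD47 and above PDCD1LG2 and CD40.

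**Figure D1:**
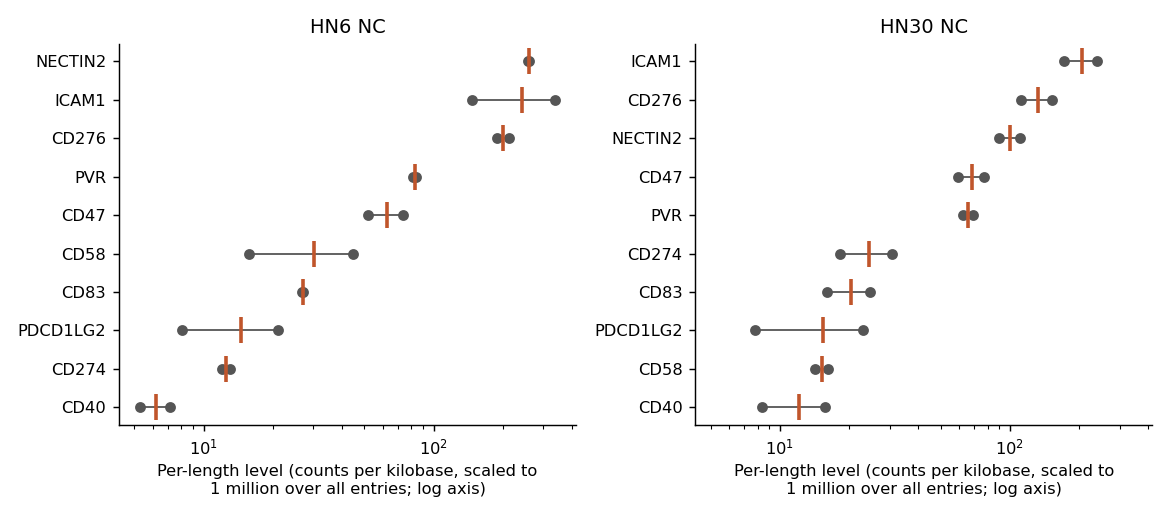
Per-length level of the 10 members in the NC libraries of HN6 (left) and HN30 (right), on a log axis. Points are the 2 libraries, the line joins them and the bar marks their mean. CD83 is the 7th of 10 in each line, and the libraries of PDCD1LG2, and of ICAM1 and CD58 in HN6, lie far apart.

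Between the lines at rest, 2 of the 10 members passed an adjusted p under 0.05 in HN30 NC against HN6 NC (quasi-likelihood test of edgeR, p-values adjusted by Benjamini-Hochberg), where 32.6% of all genes tested did. NECTIN2, a ligand of the receptors DNAM-1, TIGIT and PVRIG, was at 319 and 345 CPM in HN6 NC and at 98.7 and 112 in HN30 NC. It was 3.16-fold lower in HN30 (log2 fold change -1.66, SE 0.226, adjusted p = 0.000729). CD276 (B7-H3), a B7-family ligand carried by many carcinomas, was at 318 and 308 CPM in HN6 NC and at 151 and 188 in HN30 NC, 1.85-fold lower in HN30 (log2 fold change -0.88, SE 0.240, adjusted p = 0.0201). Without the first HN30 NC repeat the adjusted p of CD276 was 0.114. CD83 differed by -0.67 between the lines (95% interval -1.71 to 0.37, adjusted p = 0.293), which did not pass. The fall that chose CD83 was read against these same NC libraries, so its test here is not independent of the choice.

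CD83 was lower in all 8 KD libraries than in both NC libraries of its line. In HN6 its level was 28.7 and 31.1 CPM with NC, 10.1 and 7.10 with siFAT1-1, and 4.46 and 11.6 with siFAT1-2. In HN30 it was 23.5 and 14.1 CPM with NC, 3.52 and 4.38 with siFAT1-1, and 4.24 and 7.40 with siFAT1-2. The NC libraries formed a group apart at the top in each line, and the 2 siRNAs overlapped in HN6 and in HN30. As raw reads the values ran from 841 and 1103 with NC to 161 to 447 with KD in HN6, and from 831 and 558 to 94 to 254 in HN30. In RNA from a whole culture, fewer cells with CD83 and less CD83 RNA in each cell cannot be told apart.

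By condition, CD83 ranked from 29.9 ± 1.67 CPM (SD, n = 2) in HN6 NC and 18.8 ± 6.68 in HN30 NC through 8.61 ± 2.13 in HN6 siFAT1-1, 8.02 ± 5.04 in HN6 siFAT1-2 and 5.82 ± 2.23 in HN30 siFAT1-2 to 3.95 ± 0.610 in HN30 siFAT1-1. The first 3 conditions did not overlap with each other, and each of the last 4 overlapped with its neighbour. The fitted log2 fold change against NC was -1.89 (SE 0.269) over both lines, a 3.72-fold lower level. It was -1.85 (SE 0.389) in HN6 and -1.97 (SE 0.392) in HN30. Each siRNA against NC gave -2.02 (SE 0.345) for siFAT1-1 and -1.80 (SE 0.341) for siFAT1-2, both read against the same 4 NC libraries. In the 4 knockdown groups the log2 fold change ran from -1.69 (siFAT1-2 in HN30) to -2.25 (siFAT1-1 in HN30). These values chose the gene. They are set beside the background only for scale: 3.15% of the genes tested had all 8 KD libraries below both NC libraries of their line, 2254 genes (16.2%) were lower in all 4 groups, and 6 genes, CD83 included, had a log2 fold change of -1.69 or less in each. Just inside the rule by the 4-group criterion were also CD47, with values of -0.08 to -0.66, and PDCD1LG2, with -0.36 to -1.44. Just outside it were ICAM1, from -1.68 to 0.47, and CD276, from -0.47 to 0.44, each lower in 3 of 4 groups.

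The differences of CD83 between the siRNAs and between the lines were tested. Both are built from the KD values that chose the gene. Choosing a fall in every group favours agreement between groups, so neither test is independent of the choice. siFAT1-1 and siFAT1-2 differed by -0.23 (siFAT1-1 minus siFAT1-2 on the log2 scale, 95% interval -0.97 to 0.52, adjusted p = 0.675), and the log2 fold change in HN30 minus that in HN6 was -0.12 (95% interval -1.40 to 1.15, adjusted p = 1). Neither passed, and the interval of the latter leaves room for a difference between the lines of more than 2-fold in either direction.

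**Figure D2:**
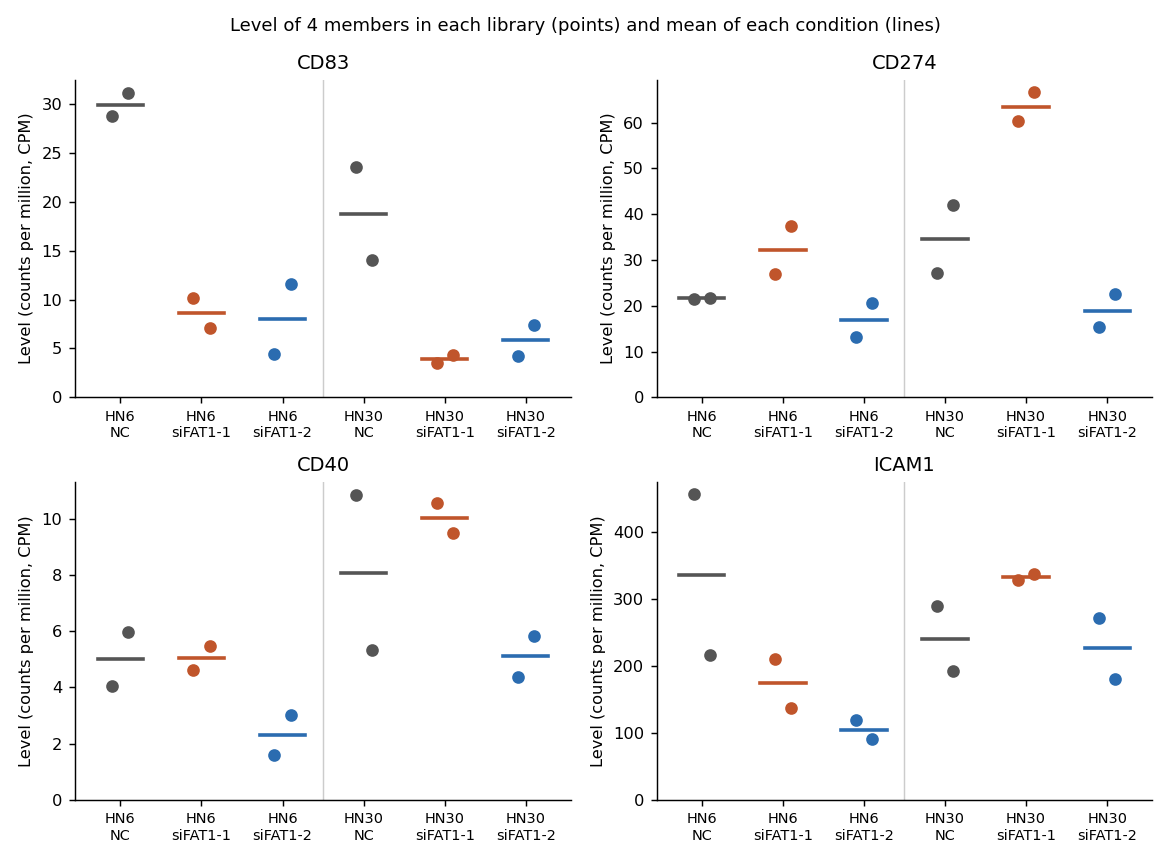
Level of CD83, CD274, CD40 and ICAM1 in CPM in each of the 12 libraries (points) with the mean of each condition (lines), each panel on its own axis from 0. CD83 lies below NC in all KD libraries, CD274 lies above NC with siFAT1-1 and below it with siFAT1-2, and ICAM1 lies below NC in the HN6 KD libraries.

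The question was then whether other ligands and adhesion molecules of the same cells moved with CD83. Over both lines, 0 of the other 9 members passed the thresholds of the study for differentially expressed genes (DEGs), which are a log2 fold change beyond 1 in size and an unadjusted P under 0.05, in edgeR's quasi-likelihood test, where 3.07% of all genes did. limma-voom and DESeq2 gave 0 as well. At an unadjusted P under 0.05 alone, 1 of 9 passed (PDCD1LG2), against 14.5% of all genes, and 0 of 9 did with the repeat time as a replicate block (unadjusted P = 0.0602 for PDCD1LG2) or with limma-voom (unadjusted P = 0.113). Leaving out the first HN6 NC repeat or, in HN30, the first NC repeat or either siFAT1-2 repeat gave 0 as well, and leaving out the second HN30 NC repeat gave 2. The median log2 fold change of the 9 was -0.05, beside 0.02 for all genes, with 5 below 0 and 4 above, and the 9 lay between -0.78 and 0.22. Taken against NC one siRNA at a time, 0 of 9 were DEGs with siFAT1-1 (background 5.98%) and 0 with siFAT1-2 (9.22%). At an unadjusted P under 0.05, 1 passed with siFAT1-1 (background 20.0%) and 5 with siFAT1-2 (28.7%). With single libraries left out the DEGs with siFAT1-2 numbered 0 to 3, drawn from CD40, ICAM1 and PDCD1LG2 and most without the second HN30 NC repeat, and its count at an unadjusted P under 0.05 was 1 (without the first HN30 siFAT1-2 repeat) to 5.

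**Figure D3:**
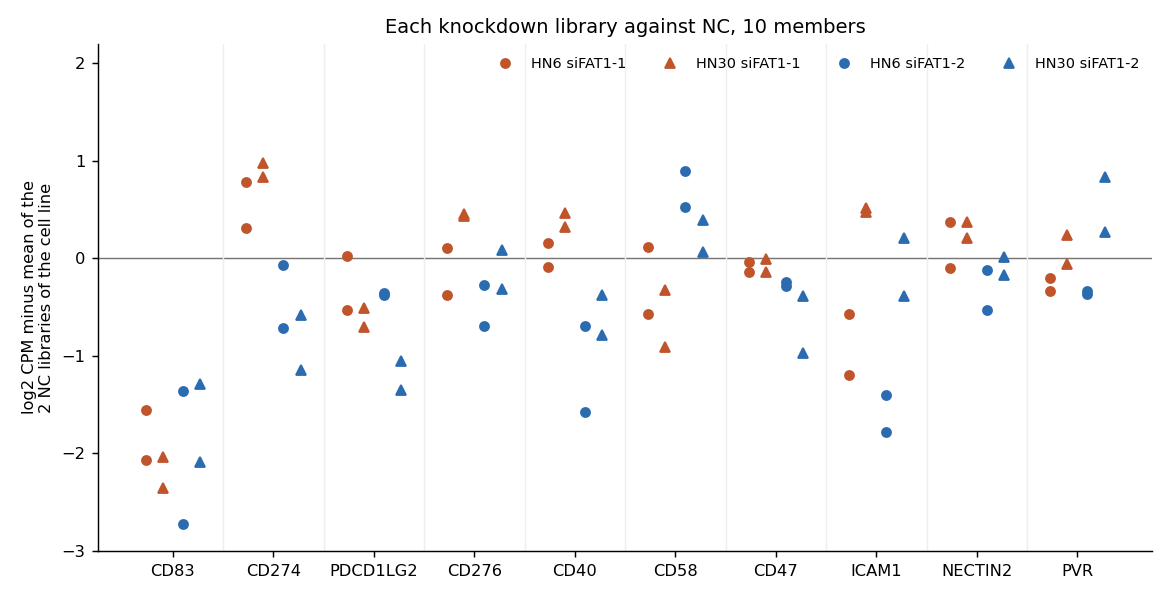
log2 CPM of each KD library minus the mean of the 2 NC libraries of its line, for the 10 members. Orange marks siFAT1-1, blue siFAT1-2, circles HN6 and triangles HN30. For CD83 all 8 points lie between -1.29 and -2.73, while the points of CD274 lie above 0 with siFAT1-1 and below 0 with siFAT1-2.

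CD274 (PD-L1), the ligand of the inhibitory receptor PD-1, differed between the siRNAs. In HN6 its level was 21.6 and 21.7 CPM with NC, 26.9 and 37.3 with siFAT1-1, and 13.2 and 20.7 with siFAT1-2. In HN30 it was 27.2 and 42.0 CPM with NC, 60.3 and 66.7 with siFAT1-1, and 15.3 and 22.6 with siFAT1-2. All 4 siFAT1-1 libraries were above, and all 4 siFAT1-2 libraries below, both NC libraries of their line. The second siFAT1-2 repeat of HN6, at 20.7 CPM, lay close to the NC repeats, at 21.6 and 21.7. The share of all genes with this order is not given here. The fitted log2 fold change was 0.72 (SE 0.230, adjusted p = 0.122) with siFAT1-1 and -0.61 (SE 0.230, adjusted p = 0.115) with siFAT1-2, which share their 4 NC libraries, so neither passed an adjusted p under 0.05 in edgeR's test. In the DESeq2 Wald test the adjusted p of siFAT1-1 was 0.028. Over both siRNAs it was 0.22 (SE 0.380, adjusted p = 0.826).

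Compared with each other, the siRNAs differed for CD274 by 1.34 (SE 0.233, 95% interval 0.82 to 1.86), a 2.52-fold higher level with siFAT1-1 (adjusted p = 0.00699). The adjusted p stayed under 0.05 in all 12 fits that left out 1 library, at 0.00478 to 0.0361. FAT1 itself differed between the siRNAs by -0.72 (SE 0.251, adjusted p = 0.0744), being lower with siFAT1-1. Whether the depth of the knockdown or other targets of an siRNA had a part in this was not tested.

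PDCD1LG2 (PD-L2), the second ligand of PD-1, lies 39964 bases beyond the end of CD274 on chromosome 9. Its level in HN6 was 23.4 and 9.72 CPM with NC, 15.3 and 10.4 with siFAT1-1, and 11.8 and 11.6 with siFAT1-2. In HN30 it was 23.0 and 7.11 CPM with NC, 7.82 and 8.97 with siFAT1-1, and 6.11 and 4.98 with siFAT1-2. The NC repeats were far apart in both lines, and only the siFAT1-2 libraries of HN30 were below both NC libraries. The log2 fold change over both lines was -0.78 (SE 0.324, unadjusted P = 0.0314, adjusted p = 0.294), and -0.29 without the first HN30 NC repeat. siFAT1-1 and siFAT1-2 differed for PDCD1LG2 by 0.37 (95% interval -0.49 to 1.22, adjusted p = 0.533), which did not pass.

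CD276 ranged from 136 to 338 CPM over the 12 libraries and was among the steadier members, with an SD within conditions of 0.237 on the log2 scale, beside a median of 0.354 for all genes. Its log2 fold change with FAT1 KD was -0.05 (SE 0.192, adjusted p = 0.928). Its siRNA difference was 0.45 (SE 0.169, unadjusted P = 0.0235, adjusted p = 0.0922). The wider list of B7 and butyrophilin molecules had 13 of 17 members with enough counts, CD80 and CD86 not among them. None of the 13 was a DEG in edgeR's test (background 3.07%), 1 passed an unadjusted P under 0.05 (background 14.5%), and the median was 0.07. VSIR (VISTA), which with CD276 was the most abundant, was 0.94 higher with siFAT1-1 than with siFAT1-2 on the log2 scale (adjusted p = 0.00714).

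CD40, the receptor of CD40 ligand in the TNF receptor family, had the lowest mean level per length of the members in NC of both lines. Over all 12 libraries it had 58 to 383 counts per library. In HN6 it was at 4.03 and 5.98 CPM with NC, 4.62 and 5.48 with siFAT1-1, and 1.61 and 3.01 with siFAT1-2. In HN30 it was at 10.8 and 5.32 CPM with NC, 10.6 and 9.50 with siFAT1-1, and 4.38 and 5.82 with siFAT1-2. The siFAT1-2 libraries were below the siFAT1-1 libraries in both lines, and the siFAT1-1 libraries lay within the NC range. The siRNAs differed by 1.05 (SE 0.313, adjusted p = 0.0467), a 2.07-fold higher level with siFAT1-1. When each of the 12 libraries was left out in turn, the adjusted p of CD40 was under 0.05 in 5 fits, and ran from 0.0319 to 0.143. CD40 was no longer a DEG in 3 of the 12, without the first siFAT1-2 repeat of HN6 (0.86), the first siFAT1-2 repeat of HN30 (0.96) or the second siFAT1-1 repeat of HN6. Over both siRNAs the log2 fold change of CD40 against NC was -0.27 (SE 0.354, adjusted p = 0.755).

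ICAM1, the ligand of LFA-1 and a textbook NF-kappa B target, was lower in the KD libraries of HN6 than in their NC libraries. In HN6 it was at 457 and 216 CPM with NC, 211 and 137 with siFAT1-1, and 119 and 91.2 with siFAT1-2. In HN30 it was at 289.7 and 192 CPM with NC, 329 and 337 with siFAT1-1, and 272 and 181 with siFAT1-2. All 4 HN6 KD libraries were below both NC libraries, while both siFAT1-1 libraries of HN30 were above theirs. The first siFAT1-1 repeat of HN6, at 211 CPM, lay close to the second NC repeat, at 216. The share of all genes with this order is not given here. Within HN6 the log2 fold change was -1.32 (SE 0.315, unadjusted P = 0.00193), past the DEG thresholds but not an adjusted p under 0.05 (adjusted p = 0.148). In the DESeq2 Wald test its adjusted p there was 0.0238. Without the first HN6 NC repeat, the high one, it was -0.69 and no longer a DEG. Within HN30 it was 0.19 (95% interval -0.54 to 0.92, adjusted p = 0.866).

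Within each line 1 of the 9 members was a DEG: ICAM1 in HN6, where 4.04% of all genes were, and PDCD1LG2 in HN30 (-1.14, SE 0.453, unadjusted P = 0.0308, adjusted p = 0.289), where 5.54% were. At an unadjusted P under 0.05 the same 2 genes passed, against 14.1% of all genes in HN6 and 14.2% in HN30. With the repeat time as a replicate block, PDCD1LG2 in HN30 had a log2 fold change of -0.98 and left the DEGs, and limma-voom gave -0.88. Without the first HN30 NC repeat it was -0.06. The difference of the KD effect between the lines reached an unadjusted P under 0.05 in 2 of the 9, ICAM1 (1.504, HN30 minus HN6, SE 0.465, unadjusted P = 0.00899, adjusted p = 0.974) and PVR (0.64, SE 0.271, unadjusted P = 0.0394, adjusted p = 0.974), where 4.0% of all genes did. Neither passed after adjustment.

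CD58 (LFA-3), the ligand of CD2, was the 1 member of which all siFAT1-1 libraries were below the siFAT1-2 libraries of their line. In HN6 it was at 21.9 and 8.54 CPM with NC, 9.24 and 14.8 with siFAT1-1, and 25.5 and 19.8 with siFAT1-2. In HN30 it was at 6.31 and 6.63 CPM with NC, 5.16 and 3.42 with siFAT1-1, and 8.54 and 6.78 with siFAT1-2. The siRNA libraries did not overlap in either line. The difference was -0.88 (SE 0.317, unadjusted P = 0.0201), and it missed an adjusted p under 0.05 (adjusted p = 0.0835). Against NC the log2 fold change of CD58 was 0.04 (SE 0.329, adjusted p = 0.974).

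CD47, the signal that restrains phagocytosis through SIRP-alpha, was at 71.9 to 177 CPM. It was below both NC libraries in 5 of 8 KD libraries, including all 4 with siFAT1-2, and above both in 0. Its log2 fold change over both lines was -0.26 (SE 0.172, adjusted p = 0.509), and the siRNAs differed by 0.38 (SE 0.163, unadjusted P = 0.0429, adjusted p = 0.135). NECTIN2 and PVR (CD155), which bind DNAM-1 and TIGIT on T and NK cells, had log2 fold changes of 0.03 (SE 0.169) and 0.01 (SE 0.184) with FAT1 KD, the nearest to 0 of the 10, and both turned slightly negative without a term for cell line. Their intervals, -0.33 to 0.40 and -0.38 to 0.41, did not reach a change of 2-fold. PVR was lower in all 4 HN6 KD libraries than in both NC libraries, at 177 to 199 CPM against 221 and 236. In HN30 it was higher in 3 of 4, at 144 to 268 against 163 and 137. The shares of all genes with these orders, and with that of CD47, are not given here. PVR, CD274, PDCD1LG2, ICAM1 and NECTIN2 overlap genes on the opposite strand, and whether reads were counted by strand is not given in the sources used here, so a share of their counts may belong to those genes.

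The siRNAs were then compared over all members. Of the 10 members, 6 had siFAT1-1 and siFAT1-2 libraries that did not overlap and lay in the same order in both lines, beside 34.1% of all genes. CD274, CD40, CD47, ICAM1 and NECTIN2 were higher with siFAT1-1 and CD58 was lower. Of the 9 other than CD83, 7 passed an unadjusted P under 0.05 (background 33.7%), 2 passed an adjusted p under 0.05 (background 16.6%) and the same 2, CD274 and CD40, were DEGs (background 12.4%). The median difference of the 9 was 0.42, beside -0.02 for all genes. With the replicate block ICAM1 also passed an adjusted p under 0.05 (0.0344), and in the DESeq2 Wald test CD58 did (0.0406). Leaving out single libraries moved the 7 to between 2 and 7, with 2 left, CD274 and CD40, without the first HN6 siFAT1-1 repeat and without the second HN30 siFAT1-1 repeat. CD83, PDCD1LG2 and PVR did not pass, and the test of CD83 is not independent of its choice.

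**Figure D4:**
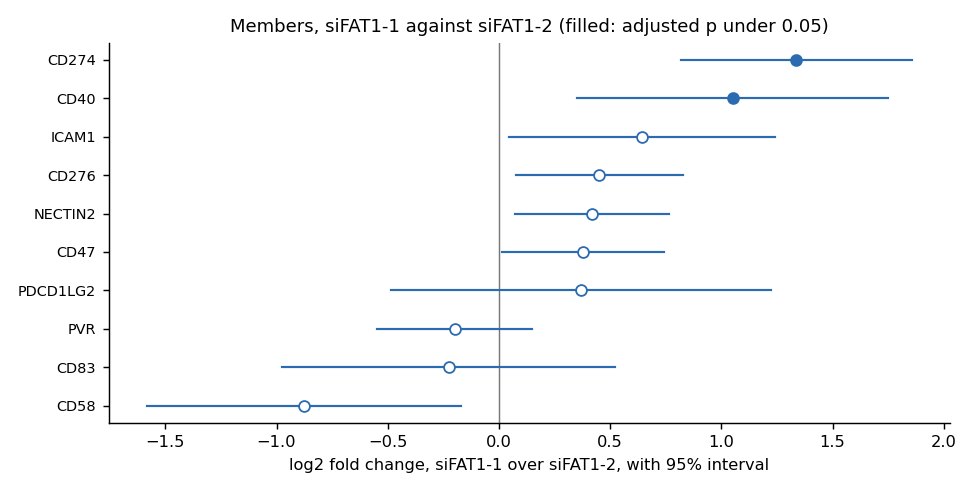
Log2 fold change of siFAT1-1 over siFAT1-2 for the 10 members with its 95% interval from edgeR. Filled points have an adjusted p under 0.05. CD274 (1.34) and CD40 (1.05) are filled, 7 of 10 points lie above 0, and CD83 lies at -0.23 with an interval across 0. The value of CD83 is not independent of its choice.

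CD83, CD40 and ICAM1 are NF-kappa B targets, so the wider list was examined. It holds these 3 as well, and CD83 is left out of its counts because it was chosen on this contrast. Of the other targets 30 were tested, and 5 were DEGs lower with FAT1 KD, where 1.04% of all genes were. These were IL1B (-1.66, SE 0.442) and IL1A (-1.20, SE 0.448), which encode interleukin-1 beta and alpha, TRAF1 (-1.21, SE 0.554), an adaptor of TNF receptors, RELB (-1.13, SE 0.285), a subunit of NF-kappa B, and NFKBIE (-1.01, SE 0.218), an inhibitor of it. None of the 5 passed an adjusted p under 0.05, the lowest being 0.0635 for NFKBIE. TRAF1 was at -2.31 within HN6 and 0.06 within HN30. These differed by 2.37 (unadjusted P = 0.00322, adjusted p = 0.974 in edgeR's test). In HN30 the mean level of TRAF1 was 4.08 CPM with NC, 7.53 with siFAT1-1 and 2.41 with siFAT1-2. IL1B, IL1A, RELB and NFKBIE had negative log2 fold changes within each line. The mean level of IL1A in HN30 was 219.5 CPM with NC, 71.4 with siFAT1-1 and 187 with siFAT1-2. At an unadjusted P under 0.05, 12 of the 30 were lower (background 7.75%) and 0 higher, and the median log2 fold change was -0.43, beside 0.02 for all genes. The most abundant targets, PLAU (-0.40, adjusted p = 0.781) and IER3 (0.43, adjusted p = 0.528), did not pass. PLAU was at 0.08 with siFAT1-1 and -1.555 with siFAT1-2, a difference between the siRNAs of 1.64 (adjusted p = 0.0287 in edgeR's test). Within HN6, 12 of the 30 were lower DEGs (background 1.54%), and within HN30 2 were (background 3.19%). In HN30 1 was a higher DEG, IER3 (1.02, SE 0.285, adjusted p = 0.175 in edgeR's test), where 5.54% of all genes were DEGs in either direction. IER3 was at -0.15 within HN6. The list was drawn up with earlier results of these data known.

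Of the known regulators of CD83, 10 of 12 were tested. In FAT1 KD against NC, 4 had an unadjusted P under 0.05, all lower (background 7.75% in this direction): NFKB1 (-0.86, SE 0.266), IRF2 (-0.75, SE 0.215), IRF1 (-0.83, SE 0.344) and ELAVL1 (-0.47, SE 0.167), the last an RNA-binding protein that handles CD83 mRNA. Their adjusted p-values ran from 0.142 to 0.294, and the median of the 10 was -0.36. ANP32B (-0.25) and XPO1 (0.02), which serve in the export of CD83 mRNA and were the most abundant, had adjusted p-values of 0.524 and 0.978. These regulators were named after their values were seen, apart from ANP32B and XPO1. RELA, the NF-kappa B subunit p65, was at -0.65 (SE 0.306) against NC over both siRNAs. It was at -0.19 (SE 0.184) with siFAT1-1 and -1.31 (SE 0.1875) with siFAT1-2. RELA differed between the siRNAs by 1.12 (SE 0.187, adjusted p = 0.00592), where CD83 differed by -0.23. Whether any of these regulators had a part in the level of CD83 was not tested.

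CD274 was read beside the interferon gamma pathway, all 23 members of which were tested. In FAT1 KD against NC 0 were DEGs in edgeR's test (background 3.07%), 4 had an unadjusted P under 0.05 (background 14.5%) and the median was -0.11. Between the siRNAs, 21 of 23 were higher with siFAT1-1, 17 of them with an unadjusted P under 0.05 (background 17.6% in this direction), and 9 with an adjusted p under 0.05 (background 9.62%). The median difference was 0.81, beside -0.02 for all genes. Among the 9, GBP1, an interferon-induced GTPase, differed by 2.54 (SE 0.472, adjusted p = 0.00848), NLRC5, the activator of class I genes, by 1.30 (SE 0.241, adjusted p = 0.00839), and TAP1, a peptide transporter, by 1.26 (SE 0.317, adjusted p = 0.0251). HLA-C, with B2M the most abundant, differed by 0.81 (SE 0.166, adjusted p = 0.0125), while B2M differed by 0.42 and missed the threshold (adjusted p = 0.0585). GBP1, NLRC5 and TAP1 were named after their values were seen. Against NC, 12 of the 23 were lower with siFAT1-2 and 1 higher at an unadjusted P under 0.05 (background 28.7% in both directions), and with siFAT1-1 4 were higher and 1 lower (background 20.0%), all against the same NC libraries.

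**Figure D5:**
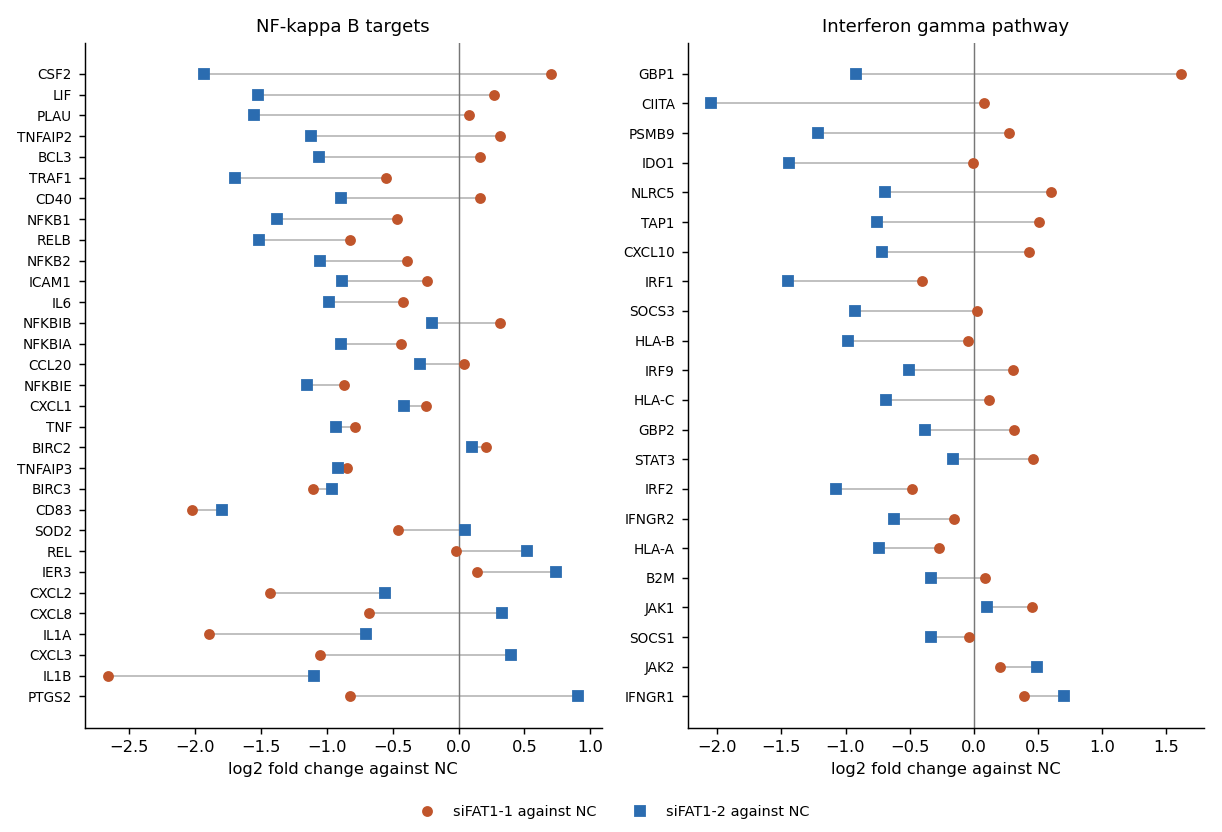
Log2 fold change against NC with siFAT1-1 (orange circles) and siFAT1-2 (blue squares) for 31 NF-kappa B targets and 22 of the interferon gamma pathway genes, ordered by the difference between the siRNAs. CD83 lies near -2 with both siRNAs, and 20 of the 22 interferon gamma genes drawn have the siFAT1-1 point to the right of the siFAT1-2 point.

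Genes with a profile like that of CD83 were sought by the root mean square difference of log2 CPM minus the NC mean of the line, over the 12 libraries. The 5 closest were IDH2 (0.494), a mitochondrial isocitrate dehydrogenase, MRGPRX3 (0.543), CCNE1 (0.554), which encodes cyclin E1, PPIL1 (0.574) and FAM25A (0.578), beside a median of 1.70 for all genes. MRGPRX3 stood at -2.073 in the first siFAT1-2 repeat and in both second KD repeats of HN6. Identical values at unlike depths mark the floor of log2 CPM, so its likeness is partly set by that floor. The closest other member was PDCD1LG2 (1.26), at place 1120 of 13887, and CD274 was the farthest (1.80). The measure favours genes that were lower by a similar amount in all 8 KD libraries, so it is a description of these libraries.

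Among the adhesion ligands, 1 of 11 tested was a DEG in FAT1 KD against NC (background 3.07%), JAM3 (-1.60, SE 0.415, adjusted p = 0.116), a low gene of tight junctions. F11R (JAM-A), with ICAM1 the most abundant, had a log2 fold change of 0.15 (SE 0.144, adjusted p = 0.668). Of the nectins and nectin-like molecules, 6 of 9 were tested and 0 were DEGs in edgeR's test against the same background, with 1 at an unadjusted P under 0.05 (background 14.5%) and a median of 0.08.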

How the data were processed

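Poly(A) RNA of 12 libraries was sequenced. The authors discarded reads that were duplicated, of low quality or rich in N, aligned the remainder to hg38, and deposited raw counts per gene as whole numbers. The submitters' processing notes name HISAT2 and featureCounts; the annotation, and whether counting was by strand, are not given in the sources used here. Symbols were matched to GENCODE 44, 18278 directly and 781 through an older symbol; 27 had been turned into dates.

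Counts were filtered with filterByExpr (minimum count 10) and tested with edgeR 4.0.16 (TMM, glmQLFit, glmQLFTest), with cell line as a term for FAT1 KD against NC and 1 mean per condition for the other comparisons. P-values were adjusted by Benjamini-Hochberg over 13887 genes. CPM used TMM factors, and log2 CPM a prior count of 2. The 95% intervals come from the SE and the total degrees of freedom of the fit, which are the residual ones plus those of edgeR's prior. Alternatives used limma 3.58.1 and DESeq2 1.42.0 in R 4.3.3; tables, sequence searches and figures used Python 3.11.15. The steps were tested on simulated data. The depth of 26430049 to 47639010 counts gave the members 58 (CD40) to 19038 (NECTIN2) counts in a library.

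The labels mark a repeat number as a separate time, so the numbers pair libraries within a line. The correlation, over genes, of how libraries with the same number deviated from their condition's mean was -0.0337 to 0.405. Each test was also fitted with the repeat time as a replicate block.

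The members and the gene lists were chosen with earlier results of these data known. Named genes were the 10 members, FAT1, the 2 most abundant genes of each list with any DEG of FAT1 KD against NC, and the 5 genes most like CD83. Genes named otherwise were named after their values were seen. Some genes of the lists enter the counts and are not reported here by name.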

Additional observations from a re-analysis of the deposited data

Results flagged for a closer look

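CD274 stood out because the siRNAs differed. siFAT1-1 over siFAT1-2 gave a log2 fold change of 1.34 (adjusted p = 0.00699, edgeR). The mean log2 CPM minus NC was 0.73 over the 4 siFAT1-1 libraries and -0.63 over the 4 siFAT1-2 libraries. Every siFAT1-1 library lay above, and every siFAT1-2 library below, both NC libraries of its line. The share of all genes with this order is not given here.

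CD40 stood out in the same comparison, at 1.05 (adjusted p = 0.0467). With groups of 2 libraries, single libraries far from the rest could not be tested for.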

How the results depend on the processing

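Each value was recomputed with limma-voom, the DESeq2 Wald test, DESeq2 size factors, no filter on low counts, the repeat time as a replicate block, no cell line term or only the libraries of a line where these apply, and without each library. The counts of DEGs (FAT1 KD, each line and between the siRNAs), of an adjusted p under 0.05 between the lines and of an unadjusted P under 0.05 for the interaction were the same with every library in place, except as follows. In HN30 the count of DEGs other than CD83 was 1 in edgeR's test (PDCD1LG2) and 0 with limma-voom and with the replicate block. DESeq2 called 3 members between the lines in place of 2, adding CD58. With single libraries left out the count ran 0 to 1 for FAT1 KD (1, PDCD1LG2, without the second HN6 NC repeat), 0 to 1 in HN6 (0 without the first HN6 NC repeat) and 0 to 1 in HN30 (0 in 5 fits). It ran 1 to 3 between the lines (CD276 lost without the first HN30 NC repeat, CD58 or PVR gained in 3 fits), 1 to 3 between the siRNAs (CD40 lost in 3 fits, CD58 gained in 2) and 1 to 2 for the interaction (PVR lost in 8 fits, ICAM1 in 1). By other thresholds, the replicate block moved PDCD1LG2 above an unadjusted P of 0.05 with FAT1 KD and ICAM1 below an adjusted p of 0.05 between the siRNAs (0.0344) and with siFAT1-2 (0.0251). With siFAT1-2 DESeq2 put CD40 (0.0382) and ICAM1 (0.0281) below an adjusted p of 0.05. Without a cell line term NECTIN2 and PVR stood at -0.01109 and -0.006005 with FAT1 KD, and in HN30 CD274 stood at -0.000207 without the filter and -0.000924 with the libraries of HN30 alone. Log2 fold changes that crossed 0 when 1 library was left out were none of them called with every library in place. For FAT1 KD they ran from -0.16 to 0.017 for CD276, -0.21 to 0.26 for CD58, -0.022 to 0.10 for NECTIN2 and -0.11 to 0.10 for PVR. Between the lines they ran from -1.22 to 0.61 for PDCD1LG2, -0.33 to 0.027 for CD47 and -0.93 to 0.14 for ICAM1, and between the siRNAs from -0.49 to 0.19 for CD83. In HN6 they ran from -0.075 to 0.29 for CD274, -0.95 to 0.33 for PDCD1LG2, -0.44 to 0.94 for CD58, -0.39 to 0.0001849 for CD47 and -0.19 to 0.034 for NECTIN2. In HN30 they ran from -0.28 to 0.35 for CD274, -0.60 to 0.43 for CD40 and -0.079 to 0.52 for ICAM1. For the interaction they ran from -0.45 to 0.30 for CD83, -0.38 to 0.24 for CD274, -1.47 to 0.37 for PDCD1LG2, -0.048 to 0.98 for CD40, -1.12 to 0.26 for CD58 and -0.37 to 0.019 for CD47. The cause of these shifts was not tested. CD83 against NC kept its direction in all fits, at -1.73 to -2.02 with single libraries left out. With 2 libraries per condition, changes the size of the spread between repeats could not be told from it.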

Other observations

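Ligands read by NK cells, shields against phagocytosis and complement, and the TNF superfamily were listed as further surface signals of the tumour cell. Of 10 ligands of NKG2D and NKp30 tested, 0 were DEGs in edgeR's test of FAT1 KD against NC (3.07% of all genes were), 1 had an unadjusted P under 0.05 (14.5% of all genes did), and the median log2 fold change was 0.10. MICB and BAG6, the most abundant, were at -0.14 (adjusted p = 0.717) and -0.19 (adjusted p = 0.559). Of 7 shields tested, which include CD47, 0 were DEGs and 2 had an unadjusted P under 0.05, 1 in each direction, against the same backgrounds, and the median was -0.26. CALR, whose protein marks cells for phagocytosis when it reaches the surface, and CD59, an inhibitor of complement lysis, were at -0.26 (adjusted p = 0.612) and -0.42 (adjusted p = 0.388).

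Of 17 TNF superfamily ligands and receptors tested, 1 was a higher DEG and 1 a lower one, beside 3.07% of all genes in both directions. TNFSF14 (LIGHT) was at 1.11 (SE 0.504, adjusted p = 0.337) and TNFRSF9 (4-1BB), an NF-kappa B target and costimulatory receptor, at -1.51 (SE 0.526, adjusted p = 0.215). In HN6 the mean level of TNFRSF9 was 56.5 CPM with NC, 34.5 with siFAT1-1 and 14.9 with siFAT1-2. In HN30 it was very low in all conditions, at 0.438, 0.0187 and 0.174 CPM in the same order. TNFRSF12A, the receptor of TWEAK, and TNFRSF21, the most abundant, were at -0.16 and 0.34 against NC. TNFRSF12A was higher with siFAT1-1 than with siFAT1-2 by 0.92 (SE 0.179, adjusted p = 0.0102).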
